A study of Mus musculus with 8 samples.

Results

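A prostate tumour from a mast cell deficient TRAMP mouse, of genotype KitW-sh, was set against prostate tumours of untreated TRAMP mice. The comparison used 3 of the 8 arrays of the series, chosen by their labels: 1 array of the KitW-sh tumour, taken at 24 weeks, and 2 arrays of untreated tumours, taken at 30 weeks. The other 5 arrays give levels for orientation: 3 tumours of TRAMP mice that received cromolyn, a mast cell stabiliser, from 8 weeks until collection at 24 weeks, and 2 non-tumour prostates of wild-type mice at 30 weeks. All mice were C57Bl/6, and all tumour-bearing mice carried the TRAMP transgene, which drives viral T antigens in prostate epithelium from the probasin promoter. The KitW-sh tumour was 6 weeks younger than the untreated ones, so genotype and age cannot be told apart. A lone array has no spread of its own, and the labels do not say that arrays of 1 group came from separate animals, so p-values cover sample-to-sample spread alone, whether biological or technical.

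Mast cells depend on the receptor tyrosine kinase Kit and its ligand, stem cell factor, and store histamine and proteases such as chymase, tryptase and carboxypeptidase in granules. The W-sh allele is an inversion upstream of Kit that removes its expression in the mast cell lineage, and 1 end of the inversion disrupts Corin, a membrane serine protease gene. TRAMP tumours are known in several forms: well differentiated lesions keep luminal keratins, E-cadherin and secretory products, whereas poorly differentiated tumours can be of neuroendocrine type, with chromogranins, synaptophysin and neural transcription factors.

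The KitW-sh tumour differed from the untreated tumours far more than these differed from each other. Neuronal, synaptic and cell cycle genes were higher in the KitW-sh tumour. Epithelial junction, luminal keratin, secretory, smooth muscle and interferon response genes were lower. Levels are log2 intensities, a difference is the KitW-sh level minus the mean of the untreated levels, and a feature, meaning a gene or an unnamed probe, counted as past the untreated range when the KitW-sh level lay at least 1 log2 unit beyond the nearer untreated array. Levels under the background limit of 7.01 were set to it for differences, so a fold given as "at least" is a bound. Of 13066 features, 1547 were higher (11.8%) and 1657 lower (12.7%) by this count, and 500 and 633 by at least 2 units. Over all features the median difference was 0 and the median absolute difference 0.481, against 0.109 between the untreated arrays, which themselves differed by at least 1 unit in 168 features (1.29%). Across features, which are not independent replicates, the KitW-sh array correlated with the untreated arrays at 0.825 and 0.823, and these with each other at 0.984. The limma fit over all 8 arrays, in which the single KitW-sh array takes its spread from the other groups, called 1487 features higher (11.4%) and 1462 lower (11.2%) at an adjusted p under 0.05. These counts were 569 and 645 without untreated replicate 1, and 567 and 638 without untreated replicate 2. Of 140 named genes limma called 105, and 73 of these kept the call whichever array was left out. The verbs rose and fell are used below for limma calls alone. With 1 KitW-sh array these calls are descriptive: their p-values hold only if that tumour type varies like the other groups, and many genes were named for their rank in the same difference.

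**Figure D1:**
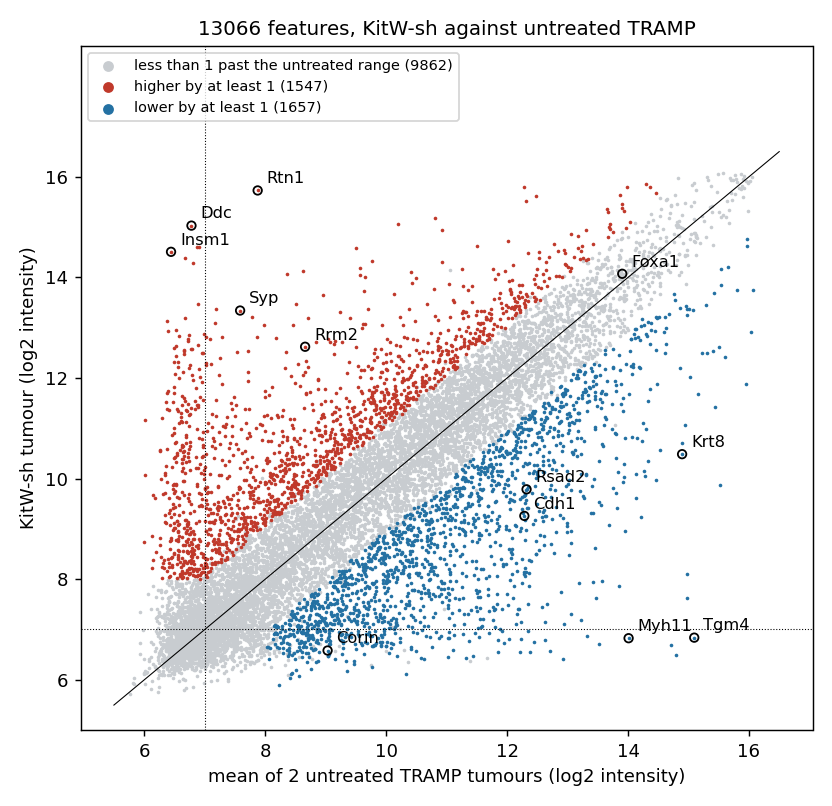
Each point is a feature, with its level in the KitW-sh tumour (y axis, log2 intensity) against its mean level in the 2 untreated TRAMP tumours (x axis, log2 intensity); red and blue mark the 1547 features higher and 1657 lower by at least 1 unit past the untreated range, and dotted lines the background limit of 7.01. Neural genes such as Insm1 sit at the upper left, Myh11 and Tgm4 at the lower right, and Foxa1 on the diagonal.

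Granule proteases of mast cells were not detected in the KitW-sh tumour and were dim in the untreated tumours. The cromolyn tumours also had them under the background limit, with mean levels of 6.63 for Cpa3, 6.76 for Cma1, 6.18 for Mcpt4 and 6.29 for Tpsb2. Of 8 measured mast cell markers, Cpa3, Cma1, Mcpt4, Tpsb2 and Fcer1a stayed at background in the KitW-sh tumour. Summed intensity of the 8 was 9014 in the KitW-sh tumour, 3413 to 9559 in the cromolyn tumours, 25492 and 22048 in the untreated tumours and 20861 and 20876 in wild-type prostate, most of it from Gata2. Cpa3, the mast cell carboxypeptidase, had a level of 6.48 in the KitW-sh tumour, against 8.55 and 7.83 in the untreated tumours. It fell at least 2.26-fold (limma adjusted p = 0.0269), and the call was lost without untreated replicate 1 (adjusted p = 0.113) and with no background correction. The chymase gene Mcpt4 was at 6.37 in the KitW-sh tumour, against 8.13 and 7.26 in the untreated tumours (adjusted p = 0.0881). The chymase gene Cma1 was at 6.70, against 7.48 and 7.15, and the tryptase gene Tpsb2 at 6.45, against 7.56 and 6.76, the last of these not above background. These proteases were under the limit in the KitW-sh tumour, so only bounds can be given, and Cma1 and Tpsb2 lay close to it in the untreated tumours. In bulk tissue fewer cells of a type and less RNA per cell cannot be told apart. Gata2, a transcription factor of mast cells that prostate epithelium also expresses, was at 12.93 in the KitW-sh tumour, against 14.54 and 14.35 in the untreated tumours, and limma did not call it (adjusted p = 0.155; 0.00588 without cromolyn replicate 2). Hdc, which makes histamine, and the granule proteoglycan gene Srgn were the other markers above background in the KitW-sh tumour, with differences of 0.86 and 0.54 that limma did not call. The mast cell list had 1 member past the untreated range, Gata2, and a median difference of -0.29. Without untreated replicate 1 the list had 1 member above and 1 below and a median of -0.07, and without untreated replicate 2 it had 3 below and a median of -0.51.

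Genes around the ends of the W-sh inversion were measured next. Corin stayed at background in the KitW-sh tumour (6.58), against 9.05 and 9.01 in the untreated tumours, and it was above background on all 7 other arrays, at 12.56, 9.53 and 9.19 in the cromolyn tumours and 8.37 and 8.34 in the wild-type prostates. This places it at least 4.07-fold lower in the KitW-sh tumour than in the untreated ones. Limma did not call it (adjusted p = 0.22), and without cromolyn replicate 1, the array at 12.56, it did (0.00237). Of the 8 genes on either side of Corin in the gene order, 7 were measured. Slc10a4 lay above the untreated range by 1.03, with no call (limma adjusted p = 0.281). Tec, a tyrosine kinase of blood cells, was at 7.28 in the KitW-sh tumour, 7.15, 7.78 and 7.44 in the cromolyn tumours and 9.41 and 9.62 in the untreated tumours, and fell (adjusted p = 0.00356). Of the 16 genes around Kit, 11 were measured: Nmu and Cep135 lay above the range by 1.15 and 1.13, with no call (adjusted p = 0.621 and 0.0889), and Srd5a3, a steroid reductase, fell, with a difference of -1.41 (adjusted p = 0.0142). The calls of Tec and Srd5a3 were not examined with an array left out. Outside the range were thus 2 of 7 genes around Corin and 3 of 11 around Kit, where 24.5% of all features were. Pdgfra, a growth factor receptor gene next to Kit, was at 11.52 in the KitW-sh tumour, against 11.06 in each untreated tumour. Kitl, which encodes stem cell factor and lies on another chromosome, was at 8.89 in the KitW-sh tumour, 8.78, 9.01 and 9.14 in the cromolyn tumours and 7.25 and 7.21 in the untreated tumours, and rose 3.16-fold (limma adjusted p = 0.0041). This rests on 1 of 2 Kitl probes, since the other was not above background on any array.

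Neuroendocrine granule genes were higher in part. Of 23 measured, 9 lay above the untreated range, where 11.8% of all features did, and limma called the same number as risen (7 without either untreated array); 1 lay below it. Ddc, the aromatic amino acid decarboxylase of amine-producing cells, was at 15.03 in the KitW-sh tumour, against 6.98 and 6.59 in the untreated tumours, neither above background. This is a rise of at least 260-fold, and the highest difference in the whole comparison (adjusted p = 0.004). Chromogranin A (Chga), the core protein of secretory granules, was at 12.84 in the KitW-sh tumour, against 6.42 and 6.74 in the untreated tumours, and rose at least 57.0-fold (adjusted p = 0.00123). Its level was also above the cromolyn tumours, at 11.75, 10.15 and 11.25, by more than 1 unit. The granin family members Scg3 and Scg5 rose at least 48.2-fold and 44.2-fold, to 12.60 and 12.48, and Chgb had a difference of at least 5.06. Pcsk1n, an inhibitor of prohormone convertase, and Vgf, a granule protein, had differences of 4.12 and 2.53. By contrast Th and Dbh, which make catecholamines, and the peptide genes Sst, Nts, Tac1 and Cartpt were at background in the KitW-sh tumour. Npy was lower, at 7.54 in the KitW-sh tumour, against 9.66 and 9.57 in the untreated tumours, and limma did not call it (adjusted p = 0.309; 0.00503 without cromolyn replicate 1). Of the 23, 7 were undetected in the KitW-sh tumour, and the list's median was 0.28.

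Synaptic vesicle and exocytosis genes moved as a broader group. Of 23 measured, 15 were above the untreated range and 1 below it, with a median difference of 2.09, and limma called 14 as risen and 0 as fallen (10 risen without either untreated array). Synaptophysin (Syp), a vesicle membrane protein used as a neuroendocrine tumour marker, was at 13.34 in the KitW-sh tumour, against 7.66 and 7.51 in the untreated tumours. It rose 54.0-fold (adjusted p = 0.000153), and in wild-type prostate it was at 10.41 and 10.46. Complexin 1 (Cplx1), which clamps vesicle fusion, was at 13.19 in the KitW-sh tumour, against 6.75 and 6.61 in the untreated tumours, and rose at least 72.4-fold. Syt1, the calcium sensor of exocytosis, and Syn1, which tethers vesicles, rose at least 37.1-fold and 36.5-fold. Syngr3, a further vesicle protein, rose 72.7-fold. Doc2b, another calcium sensor, was lower, at 7.32 in the KitW-sh tumour, against 9.67 and 9.25 in the untreated tumours, and was not called (adjusted p = 0.255; 0.0147 without cromolyn replicate 3). All of the risen members named here were at or near background in the untreated tumours and above it in wild-type prostate.

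Transcription factors of neuroendocrine and neural cells were mixed. Of 23 measured, 10 were above the untreated range and 1 below it, limma called 8 as risen (7 without either untreated array), and the median difference was 0.86. Insm1, a zinc finger factor of endocrine and neuroendocrine differentiation, was at 14.51 in the KitW-sh tumour, against 6.33 and 6.56 in the untreated tumours and 6.51 and 6.38 in wild-type prostate. It rose at least 181-fold (adjusted p = 0.00045). Prox1, a homeobox factor of neural and endocrine progenitors, rose at least 24.3-fold, and Myt1, a zinc finger factor of neural progenitors, at least 17.95-fold. Nkx2-2, a homeobox factor of neuroendocrine cells, was at 11.39 in the KitW-sh tumour, against 6.29 and 6.46 in the untreated tumours, and rose at least 20.8-fold (adjusted p = 0.000153). The cromolyn tumours had Nkx2-2 at 8.61, 8.85 and 8.93, so that the KitW-sh tumour lay 2.46 above all 7 other arrays. Neurod1, Pou3f2 and Pou4f1 were not above background in either group. Foxa2, a forkhead factor of endoderm, was at 7.56 in the KitW-sh tumour, against 6.50 and 6.30 in the untreated tumours, with no call (adjusted p = 0.629; 0.0232 without cromolyn replicate 1). Isl1, a LIM homeobox factor of neurons and endocrine cells, was the member below the range. It was at background in the KitW-sh tumour (6.79), against 11.78 and 11.93 in the untreated tumours, and limma did not call it (adjusted p = 0.0726; 0.00419 without cromolyn replicate 1 and 0.0252 without cromolyn replicate 2). In the cromolyn tumours Isl1 ranged widely, at 6.87, 11.64 and 10.15.

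Neuronal cytoskeleton and adhesion genes had the highest median of all 28 lists, 4.17. Of 31 measured, 26 were above the untreated range, none below it, and limma called 22 as risen (21 without either untreated array). Nnat, an imprinted gene of neuronal and endocrine cells, was at 14.61 in the KitW-sh tumour, against 7.14 and 6.60 in the untreated tumours (adjusted p = 0.0047). The tau gene Mapt was at 13.10 in the KitW-sh tumour, against 7.07 and 7.27 in the untreated tumours, and rose 60.9-fold. Crmp1, a mediator of axon guidance signals, and Gap43, a growth cone protein, rose at least 49.7-fold and 46.8-fold. The RNA-binding proteins Elavl2, Elavl3 and Elavl4 had differences of 5.43, 4.99 and 5.11. Ncam1, a neural adhesion molecule, had a difference of -0.17, and Tubb3 was not above background. Summed over the 31 members, intensity was 164080 in the KitW-sh tumour, 185000 to 210256 in the cromolyn tumours, 10383 and 11205 in the untreated tumours and 21086 and 23364 in wild-type prostate. Markers of Schwann cells and nerve had 1 of 7 outside the untreated range, where 24.5% of all features were, and a median of -0.04. This was Mal, a myelin and epithelial membrane protein, which fell at least 11.2-fold (adjusted p = 0.01). Their summed intensity was 6578 in the KitW-sh tumour, against 7923 and 7482 in the untreated tumours. Ranked by size, the other genes with the highest differences were in part of the same neural kind. Rtn1, a reticulon of neuroendocrine cells, rose 231-fold, to 15.73 in the KitW-sh tumour, against 8.05 and 7.70 in the untreated tumours. Eef1a2, the neuron and muscle form of a translation elongation factor, rose at least 194-fold, Gprin1, a neurite outgrowth protein, at least 156-fold, and Diras1, a small GTPase of brain, 86.2-fold counting 1 untreated array at the limit. Fam155a rose at least 61.5-fold. Diras2 and Dbx1 rose at least 166-fold and 69.4-fold and lost the call without untreated replicate 1 (adjusted p = 0.0516 and 0.0976) or untreated replicate 2 (0.054 and 0.0985), and Dbx1 also without either wild-type array. Probes of 1 gene can differ in size: of 4 Rtn1 probes and 4 Mapt probes, each at its own level, the shift on the deposited scale ran from 0.69 to 7.39 for Rtn1 and from 0.10 to 5.26 for Mapt.

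**Figure D2:**
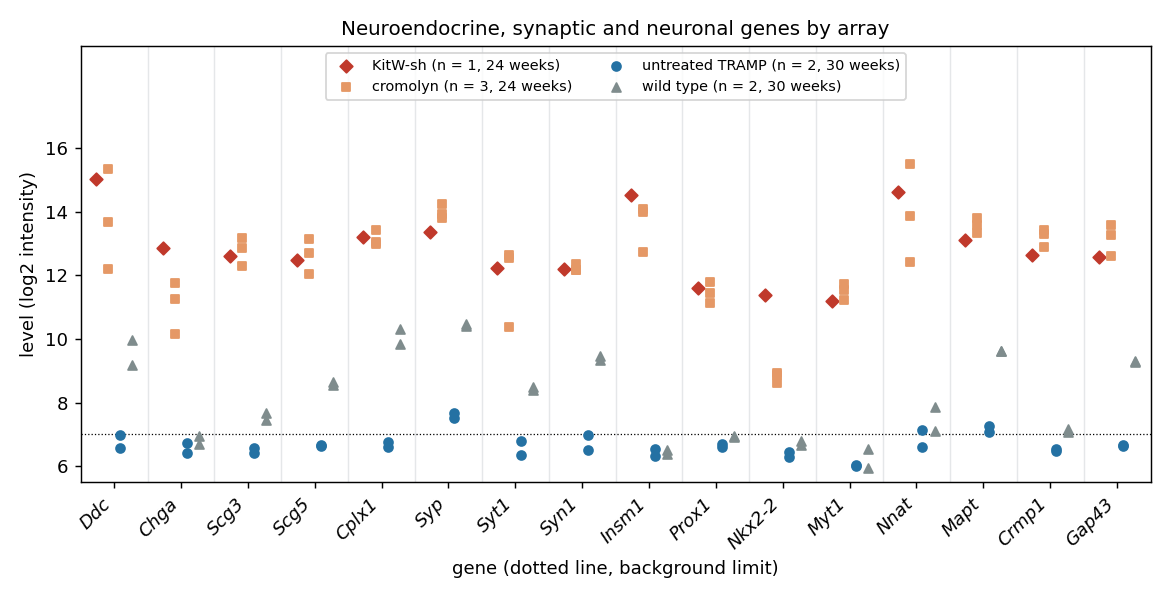
Levels of 16 neuroendocrine, synaptic and neuronal genes (y axis, log2 intensity), 1 point per array, by group; the dotted line is the background limit of 7.01. The KitW-sh array lies above both untreated arrays for each gene. It also lies above the cromolyn arrays for Nkx2-2 and Chga, by more than 1 unit, and for Insm1, by 0.43.

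Promoters of the neural lists were searched for letters of 2 motifs, in the RefSeq windows from 250 bases before to 50 bases after each start (GRCm38.p6, both strands). The E-box CAGCTG, a form bound by proneural basic helix-loop-helix factors, was present in 24 of 80 genes of the 4 neural lists with a window (30%), against 1823 of 9626 measured genes (18.9%). Of the 24, 14 were above the untreated range, 1 below it and 9 neither. Of all 80, with or without the motif, 47 were above it and 2 below it. By list the motif was in 6 of 22 granule genes (27.3%), 8 of 17 synaptic genes (47.1%), 5 of 20 transcription factors (25%) and 5 of 21 cytoskeleton genes (23.8%). The RE1 motif, the site of the neuronal repressor Rest, matched in 0 of the 80 and in 6 of 9626, which says only that these letters are not in these windows. Rest was undetected on all 8 arrays. The Chga and Cplx1 promoters are shown as examples of risen genes with the E-box, in the 250 bases before the start, with CAGCTG in capitals. They lie at chr12:102554691-102554940, plus strand, and chr5:108550028-108550277, minus strand.
Chga: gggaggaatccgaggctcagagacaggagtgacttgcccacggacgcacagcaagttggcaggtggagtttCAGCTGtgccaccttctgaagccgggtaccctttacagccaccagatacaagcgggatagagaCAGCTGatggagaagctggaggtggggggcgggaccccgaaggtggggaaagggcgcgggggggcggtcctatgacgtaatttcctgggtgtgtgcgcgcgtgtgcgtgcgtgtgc
Cplx1: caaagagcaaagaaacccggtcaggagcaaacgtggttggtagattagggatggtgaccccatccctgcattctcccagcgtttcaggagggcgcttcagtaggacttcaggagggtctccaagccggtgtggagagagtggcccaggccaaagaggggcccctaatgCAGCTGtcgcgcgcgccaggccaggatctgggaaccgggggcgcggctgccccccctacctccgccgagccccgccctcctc

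Cell cycle and E2F target genes were higher by smaller amounts. Of 33 measured, 25 lay above the untreated range and 0 below it, with a median difference of 1.23. Limma called 24 as risen, but 6 without untreated replicate 1 and 9 without untreated replicate 2. Rrm2, the regulated subunit of ribonucleotide reductase, was at 12.62 in the KitW-sh tumour, against 8.74 and 8.58 in the untreated tumours, and rose 15.6-fold (adjusted p = 0.000673). The S phase cyclin Ccne2 was at 11.27, against 8.92 and 8.97, E2f2, a factor that drives entry into S phase, at 12.78, against 10.57 and 10.31, and the S and G2 cyclin Ccna2 at 9.23, against 7.25 and 7.26. These last 3 rose 5.02-fold, 5.06-fold and 3.93-fold and lost the call without untreated replicate 1 (adjusted p = 0.0824, 0.109 and 0.0788) or untreated replicate 2 (0.0747, 0.135 and 0.0743), and E2f2 also without cromolyn replicate 3 or either wild-type array and with the mean of its probes (0.0673). Foxm1, which drives mitotic genes, and Top2a, a DNA topoisomerase, had differences of 1.93 and 1.78. Mcm6 and Chek1 had differences of 0.26 and -0.09. Untreated tumours were themselves above wild-type prostate in this list. The median level was 12.45 in the KitW-sh tumour, 10.59 and 10.91 in the untreated tumours and 8.62 and 8.52 in wild-type prostate. In the cromolyn tumours it was 12.65, 12.27 and 12.69.

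E2F motif letters (TTTCCCGC or TTTGGCGC) were found in the windows of 7 of 28 cell cycle genes (25%), against 278 of 9626 measured genes (2.89%), and 6 of the 7 were above the untreated range, as were 22 of all 28. The list was chosen for genes known as E2F targets, so the share describes the choice. The promoters of Cdc6, a replication licensing factor, and Mcm5, a subunit of the replicative helicase, are shown as examples of members with the motif before the start. They lie at chr11:98907901-98908150, plus strand, and chr8:75109259-75109508, plus strand, with the motif in capitals on the opposite strand. Cdc6 and Mcm5 had differences of 1.64 and 1.02.
Cdc6: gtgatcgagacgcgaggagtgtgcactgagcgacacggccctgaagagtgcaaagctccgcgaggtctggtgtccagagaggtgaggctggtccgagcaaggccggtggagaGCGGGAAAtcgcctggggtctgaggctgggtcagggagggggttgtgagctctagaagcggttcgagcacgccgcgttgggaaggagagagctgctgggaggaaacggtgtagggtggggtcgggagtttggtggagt
Mcm5: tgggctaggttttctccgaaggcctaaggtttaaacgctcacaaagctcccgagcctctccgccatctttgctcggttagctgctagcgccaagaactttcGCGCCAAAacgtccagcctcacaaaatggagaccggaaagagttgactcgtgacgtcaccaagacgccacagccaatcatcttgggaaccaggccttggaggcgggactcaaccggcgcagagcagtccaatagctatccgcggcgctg

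**Figure D3:**
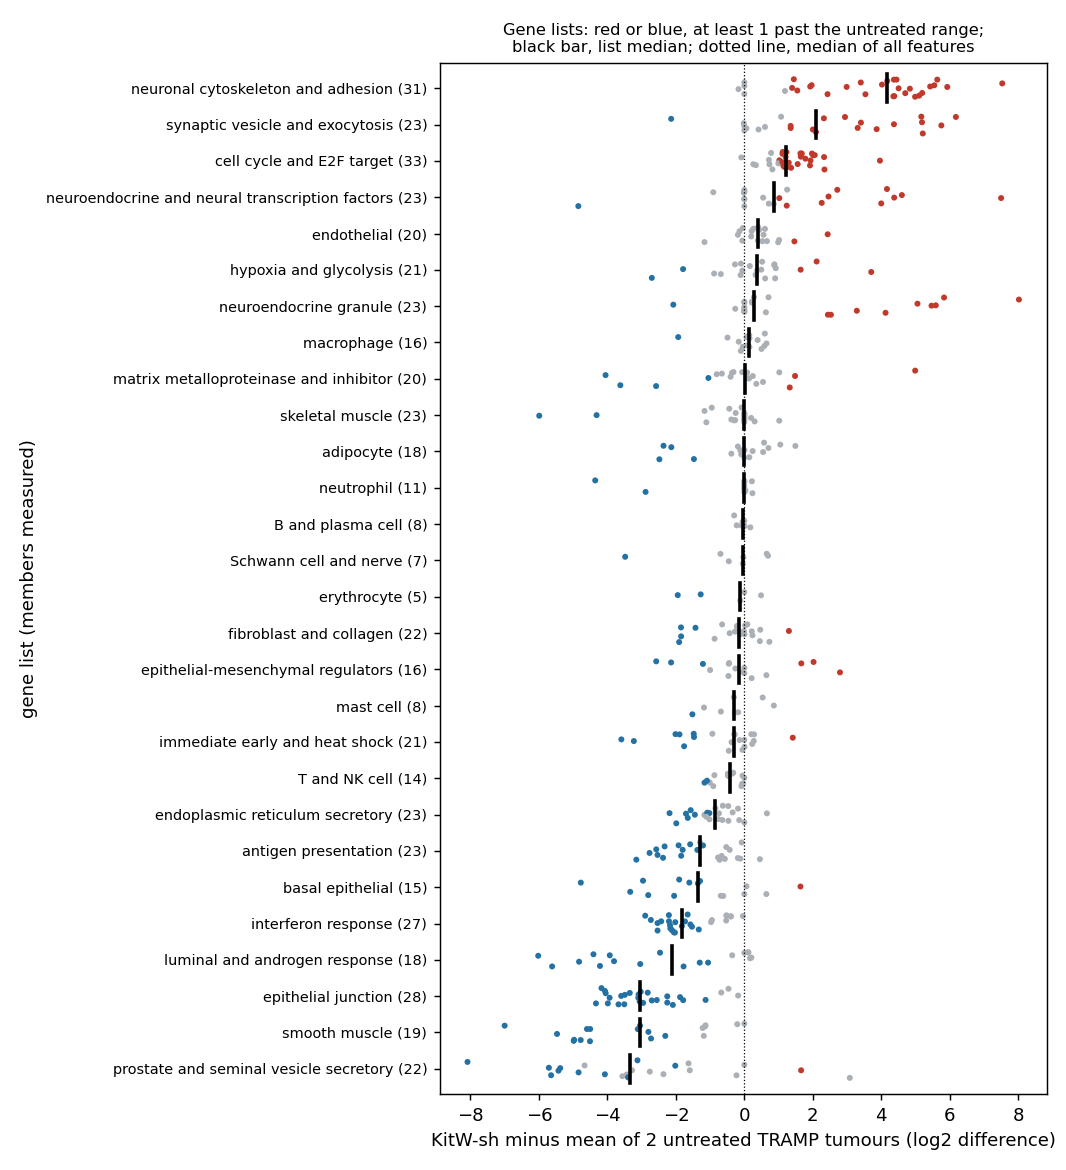
Each point is a measured member of 1 of 28 gene lists, placed by its difference (x axis, log2, KitW-sh tumour minus the mean of the untreated tumours); red and blue points lie at least 1 unit past the untreated range, and the black bar is the list's median. Medians run from 4.17 for neuronal cytoskeleton genes at the top to -3.34 for secretory genes at the bottom, against 0 for all features; without untreated replicate 2 the secretory median is -1.2, above those of smooth muscle (-3.26) and junction genes (-3.01).

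Epithelial junction genes were lower almost throughout. Of 28 measured, 25 lay below the untreated range, where 12.7% of all features did, and none above it, with a median difference of -3.04. Limma called 21 as fallen (15 without untreated replicate 1, 14 without untreated replicate 2). St14, a membrane serine protease of epithelia, was at 7.51 in the KitW-sh tumour, against 11.84 and 11.85 in the untreated tumours, and fell 20.2-fold (adjusted p = 0.000325). Rab25, an epithelial vesicle GTPase, was at 8.11, against 12.22 and 12.35, and fell 18.04-fold (adjusted p = 0.00198). E-cadherin (Cdh1) was at 9.26 in the KitW-sh tumour, against 12.24 and 12.33 in the untreated tumours, and fell 8.15-fold. Lsr, a protein of tricellular junctions, and the claudin Cldn3 fell 16.6-fold and 16.8-fold. Cdh1, Lsr and Cldn3 lost the call without untreated replicate 1 (adjusted p = 0.0885, 0.0834 and 0.0983) or untreated replicate 2 (0.0917, 0.0867 and 0.107), and Cldn3 also without either wild-type array and with offset 16 (0.0573). The epithelial splicing factors Esrp1 and Esrp2 had differences of -3.49 and -2.25. Summed intensity of the list was 10673 in the KitW-sh tumour, 6912 to 8030 in the cromolyn tumours, 94661 and 98640 in the untreated tumours and 94346 and 81389 in wild-type prostate.

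Luminal and androgen response genes were also lower, with exceptions. Of 18 measured, 12 lay below the untreated range and none above it, with a median difference of -2.12. Limma called 9 as fallen, and 4 without either untreated array. Psca, a surface antigen of prostate, was at 7.20 in the KitW-sh tumour, against 13.34 and 13.09 in the untreated tumours, and fell 64.9-fold (adjusted p = 0.0059). The luminal keratin Krt18 was at 8.63, against 13.47 and 13.44, and fell 28.4-fold (adjusted p = 0.00731). Its partner Krt8 was at 10.49, against 14.79 and 15.00, and the transcription factor Gata3 at 7.96, against 13.66 and 13.48. Krt8 fell 21.2-fold and Gata3 49.0-fold, and both lost the call without untreated replicate 1 (adjusted p = 0.106 and 0.112), untreated replicate 2 (0.114 and 0.101) or either wild-type array. Spdef, a luminal ETS factor, and the protease Tmprss2, an androgen target, had differences of -3.81 and -3.93. Foxa1, the forkhead factor that opens chromatin for the androgen receptor in prostate, was at 14.07 in the KitW-sh tumour, against 14.01 and 13.80 in the untreated tumours, and Cd24a, an epithelial surface glycoprotein, had a difference of 0.21. Of the 18, 16 were above background in the KitW-sh tumour.

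Secretory products of prostate and seminal vesicle had a median difference of -3.34, and the untreated tumours disagreed on many of them. The median was -4.72 without untreated replicate 1 and -1.2 without untreated replicate 2, where smooth muscle (-3.26) and junction genes (-3.01) were lower. Of 22 measured, 10 lay below the untreated range and 1 above it, and limma called 4 as fallen. Without untreated replicate 1, 17 lay below and limma called 14; without untreated replicate 2 these counts were 11 and 5. The prostate transglutaminase Tgm4 was at background in the KitW-sh tumour (6.84), against 15.98 and 14.21 in the untreated tumours. It fell at least 272-fold, the lowest difference in the comparison (adjusted p = 0.000673). Msmb, a seminal plasma protein, was at 9.87 in the KitW-sh tumour, against 15.52 and 15.50 in the untreated tumours, and fell about 50-fold (adjusted p = 0.00706). Wfdc15b, a protease inhibitor, with untreated levels of 11.83 and 13.61, fell at least 52.3-fold, and Mme, the membrane peptidase neprilysin, 28.7-fold. The seminal vesicle gene Svs4 was at 6.76 in the KitW-sh tumour, against 8.89 and 15.99 in the untreated tumours, and Svs2 at 6.60, against 6.70 and 13.88. Probasin (Pbsn), whose promoter drives the transgene, was at 6.46 in the KitW-sh tumour, against 10.20 and 6.94 in the untreated tumours. Untreated replicate 2 was thus high for Svs2 and Svs4 and replicate 1 for Pbsn. In the KitW-sh tumour 8 of the 22 were above background, and Wfdc3, a further inhibitor, was the member above the range, at 9.53, against 7.57 and 8.19. Other genes with very low differences were Ctse, an aspartic protease, which fell at least 208-fold to 6.70 in the KitW-sh tumour, against 14.71 in each untreated tumour, the surface gene Prom2, which fell 44.6-fold, the zinc transporter Slc39a4, 56.7-fold, Tcaf2, 118-fold, and Glb1l2, 53.4-fold. Pate14 and Pate9, sperm-coating proteins of the male tract, fell at least 91.7-fold and 60.4-fold against the untreated mean. The untreated tumours disagreed on both, at 11.57 and 15.49 for Pate14 and 13.66 and 12.19 for Pate9. Rnase1, a secreted ribonuclease, fell 162-fold but lost the call without untreated replicate 1 (adjusted p = 0.114), untreated replicate 2 (0.0879) or either wild-type array.

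Basal epithelial markers were lower in 9 of 15 cases and higher in 1, with a median difference of -1.36. Limma called 4 as fallen, but 2 without untreated replicate 1 and 1 without untreated replicate 2. Trp63, the regulator of basal cells, was at background in the KitW-sh tumour (6.70), against 9.60 and 10.03 in the untreated tumours, and fell at least 6.997-fold (adjusted p = 0.000726). Lamb3, a laminin chain of the basement membrane, fell at least 7.78-fold, with the call lost without untreated replicate 2 (adjusted p = 0.0587). Krt14 and Itgb4, a keratin and an integrin of basal cells, had differences of -4.78 and -3.33 that limma did not call. Limma called them without 1 cromolyn array, with adjusted p = 0.00239 for Krt14 without cromolyn replicate 2, and 0.0159 and 0.0137 for Itgb4 without cromolyn replicate 1 or 2. The Notch ligand Jag2 rose 3.11-fold, with the call lost without untreated replicate 1 (adjusted p = 0.0807). Regulators of the epithelial to mesenchymal transition did not move one way, with 3 above and 3 below of 16 and a median of -0.15. The shares over all features were 11.8% above and 12.7% below. Zeb2, a repressor of Cdh1, was at 11.79 in the KitW-sh tumour, against 9.17 and 8.81 in the untreated tumours. N-cadherin (Cdh2) was at 8.67, against 6.66 and 6.70, and the growth factor gene Tgfb2 at 10.39, against 8.75 and 7.98. These rose 6.93-fold, at least 3.17-fold and 4.06-fold, and Zeb2 (adjusted p = 0.0569), Cdh2 (0.0763) and Tgfb2 (0.09) lost the call without untreated replicate 2, Cdh2 also without replicate 1 (0.0836). The mesenchymal factors Twist2 and Prrx1 fell 5.95-fold and 4.41-fold (adjusted p = 0.00351 and 0.00693). Vimentin (Vim) had a difference of 0.21 and Zeb1 of 0.64.

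**Figure D4:**
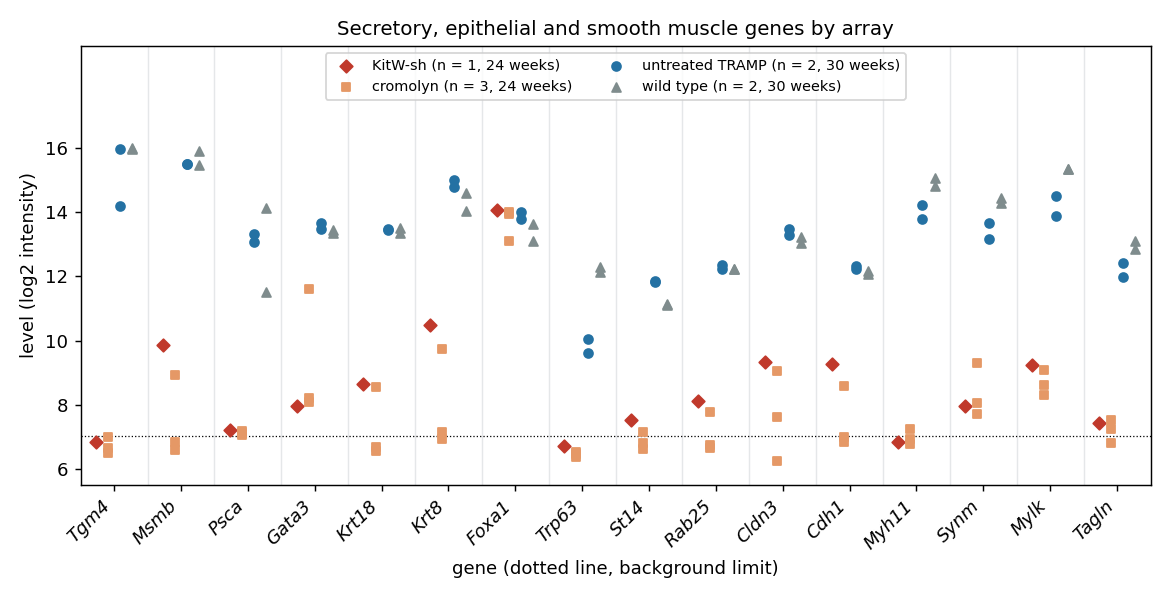
Levels of 16 secretory, epithelial and smooth muscle genes (y axis, log2 intensity), 1 point per array, by group; the dotted line is the background limit of 7.01. The KitW-sh array lies below both untreated arrays for each gene but Foxa1, at 14.07 in the KitW-sh tumour and 14.01 and 13.80 in the untreated tumours.

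Smooth muscle genes, markers of the muscular stroma of the prostate, were lower in 13 of 19 cases, with a median difference of -3.05, and limma called 16 as fallen (11 without untreated replicate 1, 14 without untreated replicate 2). Smooth muscle myosin (Myh11) was at background in the KitW-sh tumour (6.83), against 14.23 and 13.78 in the untreated tumours, and fell at least 128-fold (adjusted p = 0.000153). The intermediate filament gene Synm, the myosin kinase gene Mylk and the actin-binding protein gene Tagln fell 44.4-fold, 31.4-fold and 27.5-fold. Summed intensity of the list was 30218 in the KitW-sh tumour, 13765 to 22773 in the cromolyn tumours, 275958 and 208787 in the untreated tumours and 321484 and 348226 in wild-type prostate. The part of the lower smooth muscle signal in the other differences was not tested. Fibroblast and collagen genes had 4 of 22 below the range and 1 above it, where 12.7% and 11.8% of all features were, and a median of -0.15. Thy1, a surface glycoprotein of fibroblasts, fell 3.74-fold, with the call lost without untreated replicate 1 (adjusted p = 0.145) or untreated replicate 2 (0.0984). The collagen genes Col6a1 and Col6a2 had differences of -1.85 each, called without cromolyn replicate 2 (adjusted p = 0.00948 and 0.0388), Col1a1 had -0.43, and the matrix gene Fbln1 had 1.30, with no call.

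Markers of other cells of the tissue had list medians between -0.42 and 0.40. Their counts stand beside shares over all features of 11.8% above the range and 12.7% below it. Counts near these shares say nothing particular about a cell type. A member under the background limit on all 3 compared arrays has a difference of 0, which pulls such medians towards 0. Only 6 of 23 skeletal muscle and 4 of 11 neutrophil genes exceeded the limit on the KitW-sh array. Of these lists, 10 and 5 genes were under it on both untreated arrays. Their medians, each 0, therefore cannot show whether these cell types changed. Skeletal muscle genes had a summed intensity of 2993 in the KitW-sh tumour, against 23640 and 18270 in the untreated tumours, with 2 of 23 outside the range, both below (5 below without untreated replicate 1): Acta1, skeletal actin, fell 63.6-fold (adjusted p = 0.00908), and the troponin gene Tnnc2 fell at least 19.9-fold but lost the call without untreated replicate 1 (adjusted p = 0.0634) or untreated replicate 2 (0.0546). Most of the skeletal muscle sum in each untreated tumour came from Acta1, at 14.14 and 13.57. The list's median level in these tumours was 7.01 and 7.26, at or near the limit, so the sums mainly follow 1 gene. Adipocyte genes had 4 of 18 below the range and none above it (2 above without untreated replicate 1). Of these the lipid droplet gene Plin4 and the lipase gene Pnpla2 fell 4.38-fold and 2.78-fold and lost the call without untreated replicate 1 (adjusted p = 0.07 and 0.12), Pnpla2 also without untreated replicate 2 (0.095). Pparg, the regulator of fat cell formation, and Scd1, a fatty acid desaturase, had differences of -2.48 and -2.36 that limma did not call with all arrays. Pparg was called without either wild-type array (0.0203), and Scd1 without cromolyn replicate 2 or 3 (0.0344 and 0.0214). Endothelial markers had 2 of 20 above the range (4 above and 1 below without untreated replicate 2), Plvap and Ramp2, with differences of 2.43 and 1.46, a median of 0.40 and no limma call, although Plvap was called without either wild-type array (adjusted p = 0.049). Macrophage markers had a median of 0.14, and 1 of 16 lay outside the range (2 without untreated replicate 2), Cd14, at 8.39 in the KitW-sh tumour, against 10.24 and 10.40 in the untreated tumours, called without either wild-type array (adjusted p = 0.0312). T and NK cell markers had a median of -0.42, with 2 of 14 below the range, Nkg7 and Cd8b1, and 1 limma call, Nkg7, which was lost without untreated replicate 1 (adjusted p = 0.141), untreated replicate 2 (0.171), cromolyn replicate 3 or either wild-type array, and with offset 16, loess scaling or no filter on dim probes. Cd8b1 was called without cromolyn replicate 1 (0.0172). B and plasma cell markers had 0 of 8 outside the range. In the neutrophil list Ltf and Lcn2, which prostate epithelium also secretes, had differences of -4.36 and -2.88, with untreated levels of 9.86 and 12.87 for Ltf and no call (adjusted p = 0.196 each). Ltf was called without either wild-type array (0.045). S100a9, Ngp and Retnlg, which define neutrophils, were undetected in both groups. The erythrocyte list had Car2 and Alas2 below the range, with differences of -1.94 and -1.27, of which Car2 was called without cromolyn replicate 1 or 2 (0.0416 and 0.00534), and the haemoglobin gene Hba-a1 had 0.49.

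Interferon response genes were lower together. Of 27 measured, 19 lay below the untreated range and none above it, with a median difference of -1.82. Limma called 16 as fallen, but 9 without untreated replicate 1 and 8 without untreated replicate 2. Parp14, an interferon-induced ADP-ribosyltransferase, was at 9.69 in the KitW-sh tumour, against 12.58 and 12.59 in the untreated tumours, and fell 7.44-fold (adjusted p = 0.00722). Rsad2, which encodes the antiviral enzyme viperin, was at 9.79, against 12.16 and 12.48, and fell 5.79-fold (adjusted p = 0.0029). Lgals3bp, a secreted glycoprotein, fell 6.63-fold. Usp18, which removes the ubiquitin-like protein Isg15, was at 10.74 in the KitW-sh tumour, against 13.14 and 13.41 in the untreated tumours, and limma called it without cromolyn replicate 2 but not with all arrays (adjusted p = 0.00518 without it, 0.179 with all). Ifit3, Isg15 and Irf7 had differences of -2.43, -2.20 and -2.03, while Ifit2 and Ifi27 had -0.53 and -0.40. The list's median level was 9.69 in the KitW-sh tumour, 10.83 and 11.14 in the untreated tumours and 9.25 and 9.03 in wild-type prostate. By this median the KitW-sh tumour was closer to wild type than the untreated tumours were. The cromolyn tumours were lower than the KitW-sh tumour, at 8.25, 9.13 and 8.42.

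The interferon-stimulated response element (ISRE, searched as GAAA, any 2 bases, GAAA, on both strands) was found in the windows of 12 of 20 interferon response genes (60%), against 367 of 9626 measured genes (3.81%). Of the 12, 8 were below the untreated range and 4 were not, and of all 20 with a window 14 were below it. The list consists of known interferon targets, so the share describes the choice. The promoters of Rsad2 (chr12:26456453-26456702, minus strand), Isg15 (chr4:156200819-156201068, minus strand) and Ifit3 (chr19:34583279-34583528, plus strand) are shown with the matches in capitals, read on either strand. Isg15 has 3 overlapping matches, which form 1 run, Ifit3 has 2, and Rsad2 has 1 at -120 from the start.
Rsad2: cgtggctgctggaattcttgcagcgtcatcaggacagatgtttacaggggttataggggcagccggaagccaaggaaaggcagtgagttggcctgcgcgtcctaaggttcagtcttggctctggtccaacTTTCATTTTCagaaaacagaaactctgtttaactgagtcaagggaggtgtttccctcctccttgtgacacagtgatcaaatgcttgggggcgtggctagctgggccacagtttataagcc
Isg15: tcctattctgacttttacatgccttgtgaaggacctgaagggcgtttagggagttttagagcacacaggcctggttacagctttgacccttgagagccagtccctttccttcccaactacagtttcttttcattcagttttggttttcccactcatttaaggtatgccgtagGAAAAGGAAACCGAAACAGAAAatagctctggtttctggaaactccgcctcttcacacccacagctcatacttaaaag
Ifit3: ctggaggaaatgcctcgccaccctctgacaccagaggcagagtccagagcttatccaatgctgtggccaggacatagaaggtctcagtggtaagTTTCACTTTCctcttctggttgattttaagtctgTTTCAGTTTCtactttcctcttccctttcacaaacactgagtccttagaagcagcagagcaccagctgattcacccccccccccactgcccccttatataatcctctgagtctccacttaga

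Antigen presentation genes were lower for class I molecules, and class II genes were not called. Of 23 measured, 12 lay below the untreated range and none above it, with a median difference of -1.30, and limma called 8 as fallen (4 without either untreated array). The class I genes H2-T23, H2-D1 and H2-K1 fell 8.91-fold, 5.95-fold and 5.80-fold (adjusted p = 0.00235, 0.00461 and 0.00264). H2-K1, for example, was at 8.04 in the KitW-sh tumour, against 10.44 and 10.71 in the untreated tumours. Tapbp, which loads peptides on class I molecules, fell 6.81-fold, and B2m, the invariant class I chain, had a difference of -1.21. The class II genes H2-Aa, H2-Ab1 and H2-Eb1 and the invariant chain gene Cd74 had differences of 0.45, -0.19, -0.66 and -0.72 and none was called. Sequences of class I genes are alike, so their probes can share signal.

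Matrix metalloproteinases and their inhibitors had 3 of 20 above the range and 4 below it, and a median of 0.01. Over all features 11.8% were above it and 12.7% below it. Mmp24, a membrane-bound protease of neurons, was at 12.02 in the KitW-sh tumour, against 6.80 and 7.06 in the untreated tumours, and rose 31.8-fold counting 1 untreated array at the limit (adjusted p = 0.000252). Mmp7, the protease of epithelial cells, was at background in the KitW-sh tumour (6.41), against 10.76 and 10.51 in the untreated tumours, and fell at least 12.3-fold (adjusted p = 0.000367). Limma called 2 as risen (1 without either untreated array) and 4 as fallen (2 without either). The inhibitors Timp2 and Timp4 fell 5.97-fold and 16.6-fold, and Timp4 lost the call without untreated replicate 1 (adjusted p = 0.103) or untreated replicate 2 (0.0978). Mmp9, a gelatinase made by neutrophils and macrophages among other cells, was at 7.86 in the KitW-sh tumour, against 8.76 and 8.57 in the untreated tumours and 7.10, 7.15 and 7.26 in the cromolyn tumours. It fell 1.75-fold, within 1 unit of the untreated range (adjusted p = 0.0434), and lost the call without untreated replicate 1 (0.198), untreated replicate 2 (0.119), cromolyn replicate 1 or 3 or either wild-type array. Mmp2 and Mmp3 had differences of -1.05 and 1.48 that limma did not call.

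Genes of metabolism and stress made up the remaining lists. Their counts stand beside shares over all features of 11.8% above the range and 12.7% below it. Of 21 hypoxia and glycolysis genes, 3 lay above the range and 2 below it, with a median of 0.37. Limma called 5 as risen, but 2 without either untreated array, and 2 as fallen, 1 without untreated replicate 2. Neuron-specific enolase (Eno2) was at 11.82 in the KitW-sh tumour, against 8.17 and 8.06 in the untreated tumours, and rose 13.1-fold (adjusted p = 0.00578). The neuronal glucose transporter Slc2a3 was at 11.71 in the KitW-sh tumour, against 9.72 and 9.48 in the untreated tumours, and rose 4.32-fold. The general transporter Slc2a1 was at 9.71, against 11.46 and 11.54, fell 3.46-fold, and lost the call without untreated replicate 2 (adjusted p = 0.0541). Hexokinase 2 (Hk2) fell 6.51-fold, at 10.45 in the KitW-sh tumour, against 13.14 and 13.17 in the untreated tumours. Pfkp, a phosphofructokinase, rose 3.13-fold, with the call lost without untreated replicate 1 (0.0899) or untreated replicate 2 (0.127). Of 23 endoplasmic reticulum genes of the secretory pathway, 8 lay below the range and none above it, with a median of -0.84. Dnajc3, a chaperone of that compartment, and Rrbp1, a ribosome-binding protein, fell 3.96-fold and 3.26-fold. Kdelr3, a retrieval receptor, fell 4.55-fold and lost the call without untreated replicate 2 (adjusted p = 0.05). Herpud1, a degradation factor, fell 3.14-fold and lost it without untreated replicate 1 (0.0555). Of 21 immediate early and heat shock genes, 7 lay below the range and 1, Jun, above it, with a median of -0.30. Jun, an AP-1 factor, had a difference of 1.41 and was called without cromolyn replicate 3 (adjusted p = 0.0375) but not with all arrays. Limma called 5 of them as fallen, but 4 without untreated replicate 1 and 3 without untreated replicate 2. The heat shock genes Hspa1a and Hspb1 fell 12.1-fold and 9.36-fold (adjusted p = 0.00671 and 0.00331), and Zfp36, which destabilises cytokine mRNAs, fell 3.72-fold. Egr1, an immediate early factor, fell 4.03-fold and lost the call without untreated replicate 1 (0.055) or untreated replicate 2 (0.0658).

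The position of the KitW-sh tumour among the other arrays was then described. Of the 1547 features above the untreated range, 897 (58%) lay inside the range of the 3 cromolyn tumours, 449 above it and 201 below it. Of the 1657 lower features 916 lay inside it (55.3%), 469 above it and 272 below it. The share over all features was not counted, so these shares do not show a likeness beyond that of other features. Features at least 1 unit beyond all 7 other arrays numbered 19 higher (0.145%) and 21 lower (0.161%). Spaca7, a sperm acrosome gene, was at 11.79 in the KitW-sh tumour, 8.27 at most in the cromolyn tumours and not above background on the untreated or wild-type arrays. Calcr, the calcitonin receptor gene, was at 9.71 in the KitW-sh tumour and not above background on any other array, a difference seen with each of its 3 probes. Tpmt, thiopurine methyltransferase, was at 9.18 and likewise not above background elsewhere. The homeobox gene En1 was at 9.76 in the KitW-sh tumour, against 7.67 and 7.92 in the untreated tumours, and the zinc finger gene Glis1 at 9.29, against 7.26 and 7.43. Brinp3, a neural gene, was at 10.08 in the KitW-sh tumour, 8.24 at most in the cromolyn tumours, and not above background in the untreated tumours. Olfm4, a secreted glycoprotein, was at 11.39, against 8.13 and 6.78, with its limma call lost without untreated replicate 2 (adjusted p = 0.0618).

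Among the lower ones the homeobox gene Hoxd10 was at 7.08 in the KitW-sh tumour, 10.06, 13.79 and 9.64 in the cromolyn tumours, 9.83 and 9.43 in the untreated tumours and 10.91 and 10.95 in wild-type prostate. It was 2.36 below the nearest other array, and limma called it without cromolyn replicate 2 (adjusted p = 0.297 with all arrays, 0.0021 without it). Ccng2, a cyclin of arrested cells, was at 7.97 in the KitW-sh tumour, against 10.04 and 9.97 in the untreated tumours, with its call lost without either untreated array (adjusted p = 0.137 and 0.125) and with no background correction. Nab1, a corepressor of Egr factors, was at 8.96, against 11.29 in each untreated tumour, and fell 5.02-fold (adjusted p = 0.00327). Cmtm7 was at 8.55, against 10.80 and 10.77, with its call lost without either untreated array (0.0537 and 0.052). Fgf13, a regulator of sodium channels, was at 7.97, against 9.93 and 9.73, and Snhg11, a noncoding RNA, at background, against 9.09 and 8.66, and both were called without cromolyn replicate 2 (adjusted p = 0.00203 and 0.0281). Corin and Lamb3, described above, belong to the same 21. The number of such features depended on the cromolyn arrays: 45 higher without cromolyn replicate 1, and 48 higher and 46 lower without cromolyn replicate 3, with 11 lower when no background was corrected.

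**Figure D5:**
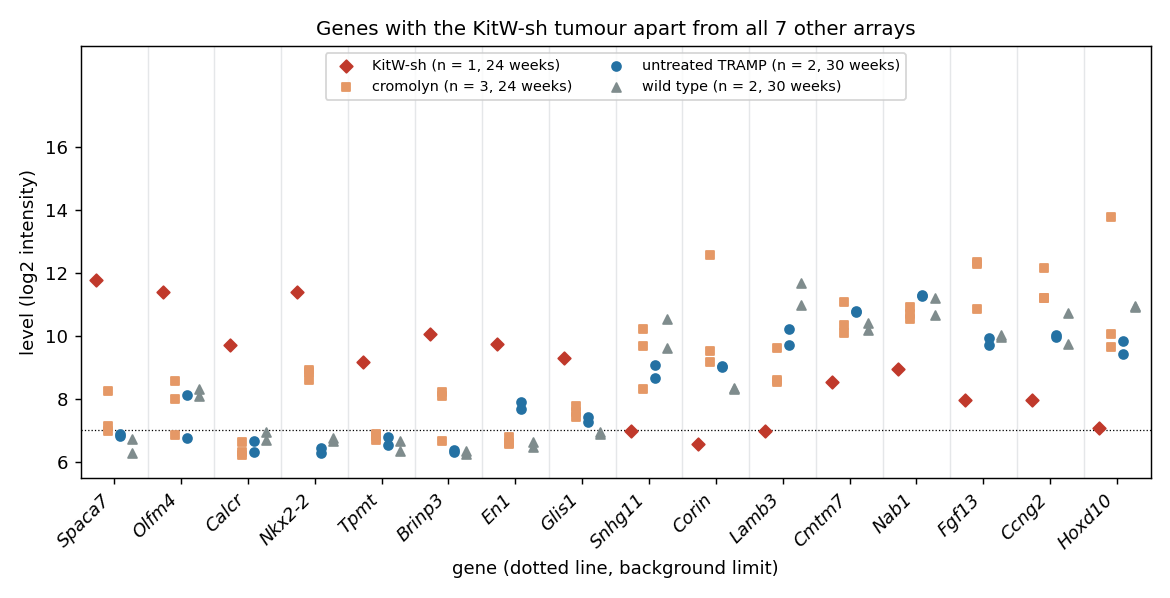
Levels (y axis, log2 intensity), 1 point per array, of the 8 genes farthest above and the 8 farthest below all 7 other arrays in the KitW-sh tumour; the dotted line is the background limit of 7.01. Spaca7 lies 3.52 above the nearest other array and Hoxd10 2.36 below it, while Corin lies 1.33 below it.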

How the data were processed

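The authors deposited 1 linear intensity per probe and array for 25697 probes, made with BeadStudio per the submitters' processing notes, with no version given. The sorted intensities of the 8 arrays differed by at most 0.0489 (log2), so they had been quantile normalized. A second table with 8 signal columns named by slide position was not used. The deposited intensity was corrected with limma 3.58.1 in R 4.3.3 (normexp, offset 50), quantile normalized and taken to log2. The background limit, an intensity of 216.4, was set from the dim side of the intensities (mode 181, SD 15.2), where 0.01 of background lies above it, and replaced a limit on detection p. Per array 14532 to 14553 probes were above it. Names came from the platform annotation, for 23978 probes with 1 name and 1719 with none, updated through a RefSeq table of GRCm38.p6 in which 23971 probes matched. The probe with the highest mean stood for its gene, which gave 11981 genes and 1085 unnamed probes. The limma fit had 4 groups, 4 residual and 2.62 prior degrees of freedom, and Benjamini-Hochberg adjustment over all features. The code was run on simulated data in which all arrays had the same spread. Such data cannot check whether the KitW-sh tumour varies like the other groups. The number of arrays limits the precision.

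Named were, leaving out clone and prediction labels, the 12 highest and 12 lowest differences past the range and the 12 farthest past it in each direction, a panel of mast cell, locus and tumour genes, up to 4 members of each list past the range in its main direction and 2 in the other, and the 8 farthest beyond all other arrays in each direction. Other list members are named with values only, and the promoters were chosen for their motifs, after values were seen. The members, lists and panel were chosen with earlier results of these data known. Some genes of the panel were not analysed here. Counts in lists carry no test of the list.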

Additional observations from a re-analysis of the deposited data

How the results depend on the processing

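Features above and below the untreated range numbered 2958 and 2803 at a distance of 0.5, and 500 and 633 at 2. Other backgrounds, offsets, scalings, filters, probe rules and leaving out an untreated array kept these counts within 1.5 times. With 1 array left out, limma calls ranged over 567 to 1966 higher and 638 to 1889 lower, lowest without an untreated array and highest without cromolyn replicate 2. With the 3 arrays of the comparison alone they were 3164 and 3036, and each gene given above as called without 1 cromolyn or wild-type array but not with all was then called too. In the fit of 3 arrays the spread came from the 2 untreated arrays alone, which differed by a median of 0.109. Its further calls therefore add no weight to genes not called with all arrays. Features beyond all other arrays ranged over 20 to 48 higher and 21 to 46 lower with 1 array left out, and were 125 and 73 at a distance of 0.5, and 11 lower with no background correction. Secretory genes below the range were 17 without untreated replicate 1 and 11 without untreated replicate 2. The cause of these shifts was not tested. Cpa3 and Ccng2 lost the limma call with no background correction (adjusted p = 0.0523 and 0.0571). No slide block could be run, since no label ties arrays to slide positions. No paired analysis was possible because the KitW-sh group has 1 array and no label pairs it with an untreated array. Signal not above the background limit on 1 side leaves only bounds for 301 of the higher and 230 of the lower features.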
